A study of Mus musculus with 55 samples.

Results

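Gene expression in the dorsal hippocampus of Cnih3 knock-out (KO) mice was compared with that of wild-type (WT) mice that had a parent from the Cnih3 line. All 28 KO libraries of the series were set against the 11 WT libraries of mice born to Cnih3 x B6 parents, which makes 39 of 55 libraries, with 1 library per mouse. The other 16 WT mice had B6 x B6 parents and were left out of this comparison. The study's sample list gives the KO mice the same kind of parents, and its methods describe both groups as offspring of Cnih3 heterozygotes, though which mice shared a litter is not given in the sources used here. WT mice of Cnih3 x B6 parents are called WT of Cnih3 breeding, and the others WT of B6 breeding. RNA-seq had been performed on males and on females staged by vaginal cytology. The KO group held 7 males and 21 females, of which 5 were staged as metestrus, 6 as diestrus, 4 as proestrus and 6 as estrus. WT mice of Cnih3 breeding were 4 males, 4 females in diestrus and 1 each in metestrus, proestrus and estrus. Stage group (the males or 1 of the 4 cycle stages) was therefore a covariate in the model, and in 3 of the 5 stage groups the WT level rested on a single mouse. Mice were 11.7 to 23.7 weeks old in the WT group (median 17.1) and 10.9 to 23.7 in the KO group (median 16.3). All mice were on a C57/BL6j background. The KO line was founded from BL/6N animals carrying the tm1a(KOMP)Wtsi allele of Cnih3 and lacks exon 4, and it is a single line. Replicate numbers are those given over both kinds of WT mice of a stage. Each p-value measures the spread between mice.

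Cornichon homolog 3, encoded by Cnih3, is an auxiliary protein of AMPA receptors, the glutamate receptors that carry most fast excitatory transmission. Such receptors are tetramers of the subunits encoded by Gria1 to Gria4. Auxiliary proteins of several unrelated families (cornichons, TARPs encoded by Cacng genes, Shisa proteins, Prrt1 and others) bind the subunits, steer their export from the endoplasmic reticulum and set how quickly the channel closes. In the hippocampus, cornichons are found mainly in excitatory neurons.

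Total gene counts per library ran from 41339048 to 58932939 in WT mice (median 52125725) and from 32817017 to 63547098 in KO mice (median 56322651). Of the 55487 annotated genes, 16168 passed the filter of over 1 CPM (counts scaled to a common library size) in at least 10 of the 55 libraries. Sex-linked genes matched the sex label in all 55 libraries. Choroid plexus genes, which come from tissue next to the dissected hippocampus, summed to between 35.9 and 1168 CPM in WT mice and between 35.4 and 2289 CPM in KO mice, with medians of 218 and 98.3. In bulk tissue, fewer cells of a type and less RNA per cell cannot be told apart.

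Cnih3 itself (ENSMUSG00000026514; GRCm38 chromosome 1, 181352628 to 181460641, plus strand) was measured at 27.5 to 59.3 CPM in the 11 WT mice, with a median of 38.2. In the 28 KO mice it was measured at 21.6 to 47.8 CPM, with a median of 31.0. The groups overlapped widely, and 4 KO mice lay below all WT mice. The log2 fold change of KO against WT was -0.34 ± 0.092 (SE), with an FDR of 0.0164. In males it was -0.66 (FDR 0.0364) and in diestrus -0.11, and the difference between these did not pass (FDR 0.126). Cnih3 was no longer called in unweighted limma (FDR 0.134), in edgeR (FDR 0.135) or without the lone WT metestrus mouse (FDR 0.0660). These counts cover the whole gene. They do not measure the deleted exon, so they are no check of the genotype. That exon is the fourth of 6 in transcript Cnih3-204, at chr1:181449970-181450082. It holds 113 bases, which leaves a remainder of 2 after division by 3, so its loss shifts the reading frame of what follows. It is printed here because it is the sequence that distinguishes the genotypes.
Cnih3 exon 4: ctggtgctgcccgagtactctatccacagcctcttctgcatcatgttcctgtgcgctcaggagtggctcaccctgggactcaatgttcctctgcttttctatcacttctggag

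At an FDR under 0.05, 1449 of 16168 genes (8.96%) were differentially expressed genes (DEGs). Of these, 529 (3.27%) were higher and 920 (5.69%) were lower in KO mice. Changes were small, with a median absolute log2 fold change of 0.28 over the DEGs, and 5 DEGs changed by over 1. The median over all genes tested was 0.0096. Without adjustment, 4021 genes had a p under 0.05. The number of DEGs depended on the weight given to single libraries. With voom but no quality weights 50 genes passed, with edgeR 45 and with DESeq2 111, and all of the 50 and the 45 were among the 1449. Without the lone WT estrus mouse 541 genes passed, without WT male replicate 3 688, and without the lone WT proestrus mouse 866. These weights ran from 0.449 to 2.09 in WT mice and from 0.251 to 2.06 in KO mice. Genes called by weighted limma, unweighted limma, edgeR and a fit that adjusts for the balance of short and long transcripts (described with the length of transcripts) numbered 44, of which 36 were lower and 8 higher.

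**Figure D1:**
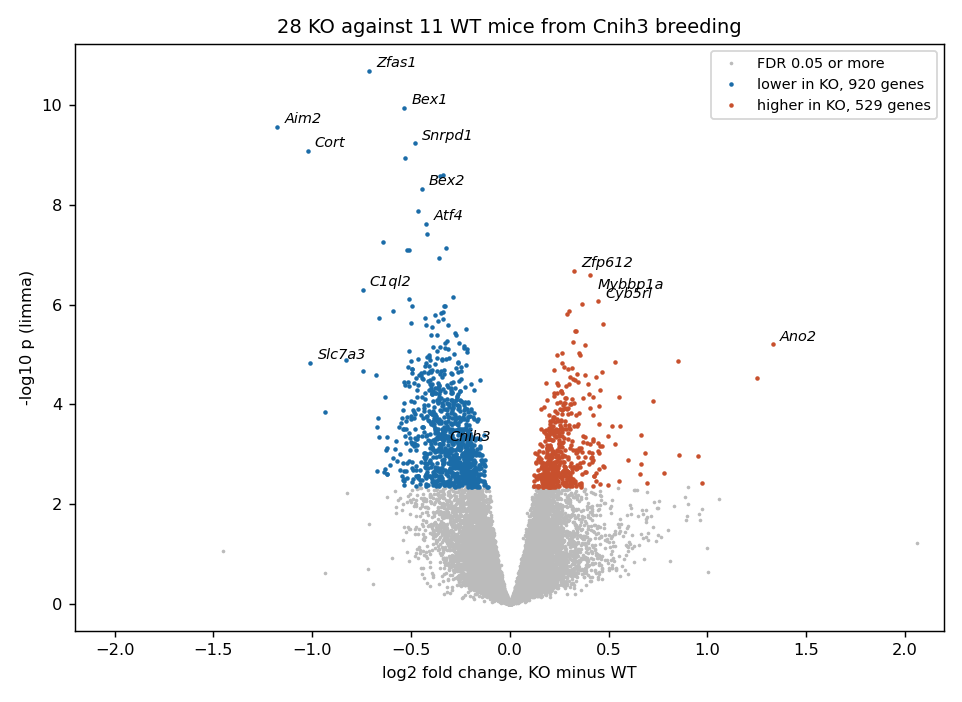
The x axis gives the log2 fold change of 28 KO against 11 WT mice and the y axis -log10 of the limma p-value, with 1 point per gene and the genes past an FDR of 0.05 in colour. The 920 lower genes hold the smallest p-values, led by Zfas1, while the largest rise among called genes is that of Ano2 (1.33).

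The gene with the smallest FDR was Zfas1 (ENSMUSG00000074578; chromosome 2, 167062934 to 167065862), a non-coding RNA whose introns hold small nucleolar RNAs. Zfas1 was at 46.7 to 120 CPM in WT mice (median 64.4) and at 26.3 to 63.6 CPM in KO mice (median 41.7). All 28 KO mice were below the WT median and 20 were below every WT mouse. The log2 fold change was -0.71 ± 0.078 (SE; FDR 3.33e-07), with -0.62 in males and -0.61 in diestrus. Zfas1 overlaps the start of Znfx1 on the other strand, and the library kit does not mark strand, so reads in the overlap cannot be told apart. Znfx1 had a log2 fold change of 0.06. Gas5, another host of small nucleolar RNAs, fell from a WT median of 369 CPM to 295 CPM in KO mice (log2 fold change -0.39, FDR 0.00107). In all, 6 of 11 snoRNA host genes fell, Snhg1 (-0.37), Snhg8 (-0.30), Snhg12 (-0.25) and Snhg6 (-0.22) being the others, against 5.69% of all genes tested, and the median of the list was -0.22. In unweighted limma, in edgeR and against WT of B6 breeding 1 of the 11 fell. The count was 3 without WT male replicate 3 and 3 without the lone WT estrus mouse.

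Genes of the spliceosome were also lower. Sm and Lsm proteins form the rings around the small nuclear RNAs of the splicing machinery. The list of 20 genes also holds other proteins of these RNA particles, Snrpc and Snrpb2 among them. Of the 20, 8 fell and none rose, against 5.69% of all genes falling, with a list median of -0.16. In unweighted limma, in edgeR and against WT of B6 breeding 3 of the 20 fell. Snrpd1 was at 120 to 216 CPM in WT mice (median 142) and at 87.4 to 166 CPM in KO mice (median 105). Of the KO mice, 24 lay below every WT mouse, and the log2 fold change was -0.48 ± 0.060 (FDR 2.38e-06). Snrpc, the U1 protein that helps to recognise the 5′ splice site, was at 52.6 to 93.9 CPM in WT mice (median 59.1) and at 33.2 to 71.6 CPM in KO mice (median 45.6). Snrpc changed by -0.46 ± 0.066 (FDR 2.20e-05), with 23 KO mice below every WT mouse. Snrpd3 changed by -0.34 (FDR 5.28e-06). Snrpe, Snrpg, Snrpb2, Snrpb and Lsm8 changed by -0.33, -0.30, -0.27, -0.27 and -0.15. Among 28 splicing regulators 6 fell (Hnrnph1 -0.15, Ddx5 -0.18, Srsf5 -0.24, Srsf3 -0.15, Srsf6 -0.31 and Srsf1 -0.19) and Luc7l rose by 0.24, a count of 7, against 8.96% of all genes, that was 4 without the lone WT estrus mouse. None of the 28 passed in unweighted limma or edgeR. Polr2k, a small subunit shared by the RNA polymerases, fell from a median of 45.7 to 32.6 CPM (-0.53, FDR 3.15e-06). Khdrbs1, which encodes the RNA-binding protein Sam68, fell from a median of 74.3 to 58.9 CPM (-0.32, FDR 8.05e-05), and was chosen after its values were seen.

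Brain-expressed X-linked (Bex) genes and the neighbouring Tceal genes encode short proteins and lie together on the X chromosome. Bex1 (ENSMUSG00000050071; 136213972 to 136215513, minus strand) was at 82.4 to 146 CPM in WT mice (median 94.6) and at 43.5 to 111 CPM in KO mice (median 66.8). Of the KO mice 26 lay below every WT mouse, and the log2 fold change was -0.54 ± 0.063 (FDR 9.30e-07). Bex2 changed by -0.45 (FDR 8.66e-06) and Bex4 by -0.42 (FDR 5.18e-05), so 3 of 4 Bex genes fell, against 5.69% of all genes, and Bex3 (-0.10, FDR 0.298) did not pass. Tceal8 changed by -0.36 (FDR 5.28e-06), and with Tceal9, Tceal1, Tceal5 and Tceal6, at -0.21, -0.20, -0.21 and -0.18, 5 of 7 Tceal genes fell. Bex4 and the other members beyond Bex1, Bex2 and Tceal8 were chosen after their values had been seen. Bex1 overlaps Tceal7, and near-identical copies of Bex genes can split uniquely aligned reads, so the share of each is uncertain. Promoters of the 3 genes that led the family and hold an E-box (CACGTG, its own reverse complement) are printed to show how alike 2 of them are. They run from 250 bases before to 50 bases after the gene start in RefSeq (GRCm38.p6), 5′ to 3′ on the gene's strand, with the E-box in capitals.
Bex1, minus strand, chrX:136215464-136215763: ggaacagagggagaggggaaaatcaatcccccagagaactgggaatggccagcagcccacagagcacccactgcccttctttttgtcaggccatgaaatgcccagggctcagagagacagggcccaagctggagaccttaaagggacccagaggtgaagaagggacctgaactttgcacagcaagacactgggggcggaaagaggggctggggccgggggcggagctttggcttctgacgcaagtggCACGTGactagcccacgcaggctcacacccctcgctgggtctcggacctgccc
Bex4, plus strand, chrX:136138746-136139045: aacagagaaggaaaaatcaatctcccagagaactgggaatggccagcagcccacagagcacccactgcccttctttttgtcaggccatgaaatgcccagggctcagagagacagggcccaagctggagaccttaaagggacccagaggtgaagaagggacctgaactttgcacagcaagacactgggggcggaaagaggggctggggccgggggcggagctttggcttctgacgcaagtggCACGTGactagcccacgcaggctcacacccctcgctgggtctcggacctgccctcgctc
Tceal8, minus strand, chrX:136172202-136172501: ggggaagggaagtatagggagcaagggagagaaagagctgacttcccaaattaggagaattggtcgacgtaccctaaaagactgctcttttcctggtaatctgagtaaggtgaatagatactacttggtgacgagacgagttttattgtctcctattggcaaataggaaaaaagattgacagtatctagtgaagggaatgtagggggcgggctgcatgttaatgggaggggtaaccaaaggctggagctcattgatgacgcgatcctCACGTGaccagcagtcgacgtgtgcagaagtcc
The Bex1 and Bex4 promoters share an identical run of 271 bases. The E-box, searched on both strands, is found in 7.15% of 32851 promoters, in 9.56% of those of genes tested and in 9.77% of those of genes lower in KO mice, and the Bex2 promoter lacks it. These shares are a description and mark no binding site.

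**Figure D2:**
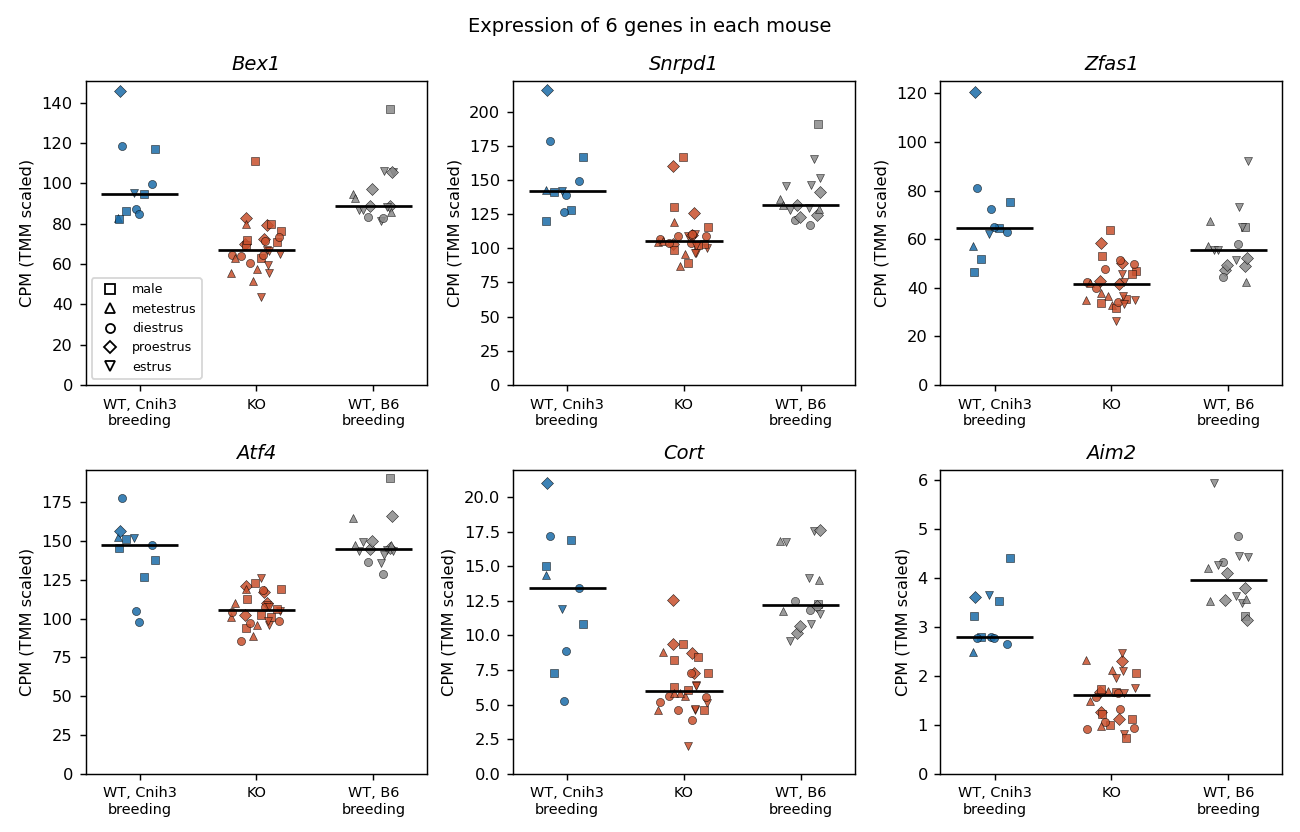
Each point is 1 mouse, placed by its CPM (y axis, from 0) in the WT mice of Cnih3 breeding (n = 11), the KO mice (n = 28) and the WT mice of B6 breeding (n = 16), with its shape giving the stage group and the line the median. Aim2 has no overlap between KO and WT mice of Cnih3 breeding, and in Bex1 26 of 28 KO mice lie below every such WT mouse.

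Aim2, a sensor of cytosolic DNA that belongs to a family of interferon-inducible genes (ENSMUSG00000037860; chromosome 1, 173350879 to 173466040), was the 1 gene of 16168 (0.00619%) whose CPM in KO and WT mice did not overlap. WT mice had 2.49 to 4.41 CPM (median 2.80) and KO mice 0.734 to 2.47 CPM (median 1.61). The log2 fold change was -1.18 ± 0.14 (FDR 1.46e-06), with -1.45 in males and -1.20 in diestrus. Aim2 lies 7.89 Mb from Cnih3 on the same chromosome, and its relatives in a nearby cluster are alike in sequence, so its reads may be shared with them. Cort, the neuropeptide cortistatin of a subset of interneurons, was at 5.24 to 21.0 CPM in WT mice (median 13.4) and at 2.02 to 12.5 CPM in KO mice (median 5.97). Cort fell by 1.02 on the log2 scale (SE 0.13; FDR 2.66e-06), and all 28 KO mice were below the WT median, though the groups overlapped. Npy, a neuropeptide of other interneurons, changed by -0.47 (FDR 0.00713), and its KO range of 78.7 to 406 CPM enclosed the WT range of 93.7 to 256 CPM. C1ql2, a synaptic organiser made by dentate granule cells, went from a median of 22.7 to 13.5 CPM (-0.75 ± 0.13, FDR 4.12e-04), with 25 of 28 KO mice below the WT median. Itpka, a kinase of dendritic spines, went from a median of 139 to 99.5 CPM (-0.52, FDR 8.05e-05), and was likewise chosen after its values were seen.

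Atf4, the transcription factor of the integrated stress response, which induces amino acid synthesis and transport, was lower in KO mice together with some genes known as its targets. Atf4 was at 98.1 to 178 CPM in WT mice (median 148) and at 85.9 to 126 CPM in KO mice (median 106). All 28 KO mice lay below the WT median, 6 lay below every WT mouse, and the log2 fold change was -0.42 ± 0.062 (FDR 3.50e-05). The 2 lowest WT values, 98.1 and 105, were of diestrus mice. Of the 13 genes on the Atf4 target list, Atf4 included, 4 fell and none rose, against 5.69% of all genes falling. The other 3 were Atf5 (-0.59, FDR 7.57e-04), a related factor, Mthfd2 (-0.35, FDR 0.00334), a mitochondrial folate enzyme, and Chac1 (-0.49, FDR 0.00412), a glutathione-degrading enzyme. Asns (-0.11, FDR 0.318), Slc7a5 (-0.12, FDR 0.491) and Ddit3 (-0.03, FDR 0.792) did not pass. The list's median was -0.11, and 4 members also fell in unweighted limma, in edgeR and with the transcript index. Slc7a3, a cationic amino acid transporter that is not on the list, was at 0.534 to 4.24 CPM in WT mice (median 2.90) and at 0.505 to 2.31 CPM in KO mice (median 1.18), and changed by -1.01 ± 0.21 (FDR 0.00269). In males every KO mouse was below every WT mouse for Slc7a3 (-1.53), while in diestrus the change was -0.12 and the groups overlapped, and this difference did not pass (FDR 0.0887). The amino acid response element, which Atf4 is known to bind, was searched for in a single exact form (TGATGCAA or, on the other strand, TTGCATCA). That form is present in 0.895% of 32851 promoters. It is found in the Chac1 promoter, printed with the element in capitals, and not in those of Atf4, Atf5, Mthfd2 or Asns. Other forms of the element were not searched for, so these promoters may hold them.
Chac1, plus strand, chr2:119350992-119351291: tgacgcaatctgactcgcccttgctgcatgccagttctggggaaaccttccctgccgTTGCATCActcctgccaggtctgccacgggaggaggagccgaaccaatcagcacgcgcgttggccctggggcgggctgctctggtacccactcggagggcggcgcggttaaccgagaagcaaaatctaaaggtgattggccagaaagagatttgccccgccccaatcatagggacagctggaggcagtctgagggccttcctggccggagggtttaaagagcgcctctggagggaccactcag

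The higher genes had larger FDRs than the leading lower genes, and none of the gene lists held more than 1 of them. Zfp612, a zinc finger gene, was at 40.5 to 83.2 CPM in WT mice (median 53.3) and at 56.8 to 85.7 CPM in KO mice (median 67.6). All 28 KO mice exceeded the WT median, and the log2 fold change was 0.32 ± 0.052 (FDR 1.89e-04). Ubxn11, a UBX-domain gene, was at 9.69 to 17.2 CPM in WT mice (median 11.7) and at 12.8 to 22.7 CPM in KO mice (median 18.0). Ubxn11 rose by 0.47 ± 0.086 (FDR 0.00101), with 17 KO mice above every WT mouse. Mybbp1a, a nucleolar protein, rose by 0.41 (FDR 2.16e-04), Cyb5rl by 0.45, the ubiquitin-like protease gene Uspl1 by 0.36, the cytochrome oxidase assembly gene Coa5 by 0.30 and the deubiquitinase gene Usp11 by 0.29. Nrip3, the ciliary transport gene Ift172 and Arhgap33 rose by 0.33, 0.33 and 0.32. The largest rises among DEGs were in genes of low level. Ano2, a calcium-activated chloride channel, was at 0.116 to 0.965 CPM in WT mice (median 0.537) and at 0.342 to 2.51 CPM in KO mice (median 1.20), a change of 1.33 ± 0.26 (FDR 0.00186). Adgrf4, an orphan adhesion receptor, rose by 1.25 ± 0.27 (FDR 0.00369). Its median was 0.493 CPM in WT mice of Cnih3 breeding and 1.06 CPM in those of B6 breeding, against 1.14 CPM in KO mice. The rises of 9830144P21Rik (0.97, FDR 0.0451), Pcdhgb2 (0.95, FDR 0.0224) and AW551984 (0.86, FDR 0.0218) were lost on leaving out single mice, 16, 2 and 2 of the 39 respectively, WT male replicate 3 and the lone WT estrus mouse among them in each case. The largest falls beside Aim2, Cort and Slc7a3 were those of the non-coding Gm16551 (-0.93, FDR 0.00764), which did not pass without the lone WT estrus mouse, and of Cryba2 (-0.83, FDR 0.00259).

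The AMPA receptor subunits did not pass, and some auxiliary proteins did. None of the 4 AMPA receptor subunit genes passed, with log2 fold changes of 0.10 ± 0.0585 for Gria1, 0.05 ± 0.0756 for Gria2, 0.09 ± 0.064 for Gria3 and 0.15 ± 0.0839 for Gria4 (FDR 0.284, 0.726, 0.418 and 0.253). Gria1 was at 426 to 760 CPM in WT mice (median 615) and at 496 to 788 CPM in KO mice (median 650). Of 20 genes for auxiliary proteins, Cnih3 included, 4 fell and Cpt1c rose, against 8.96% of all genes in either direction, and the median of the list was -0.06. Cnih2, the closest homolog of Cnih3 and the other cornichon known to bind AMPA receptors, was at 69.0 to 223 CPM in WT mice (median 119) and at 64.6 to 188 CPM in KO mice (median 97.7). It changed by -0.27 ± 0.083 (FDR 0.0353). Prrt1, also called SynDIG4, changed by -0.24 (FDR 0.0185) and Cacng4, a TARP, by -0.23 (FDR 0.0298). Cpt1c, a brain carnitine palmitoyltransferase found in AMPA receptor complexes, changed by 0.22 (FDR 0.0314). These 5 calls were 1 without the lone WT metestrus mouse, 2 without KO male replicate 5, 2 without the lone WT proestrus mouse, 2 without the lone WT estrus mouse, 3 without WT male replicate 4 and 3 without KO estrus replicate 5, and 0 of the 5 passed in edgeR or unweighted limma.

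The other 15 genes of the auxiliary list did not pass. They were Cnih1 (-0.12), Cacng5 (0.13), Frrs1l (-0.07), Cnih4 (-0.06), Porcn (0.09), Cacng2 (-0.05), Cacng8 (-0.12), Shisa9 (-0.08), Cacng3 (-0.05), Gsg1l (-0.07), Syndig1 (0.04), Shisa6 (0.02), Abhd6 (-0.01), Cacng7 (0.01) and Shisa7 (-0.01), all as log2 fold changes. Of 15 scaffold and trafficking genes Dlg3, encoding SAP102, passed at -0.20 (FDR 0.0454), and this call was lost on leaving out any 1 of 18 mice. None of 11 NMDA and kainate receptor subunits passed. Cnih3 has been studied for its part in opioid dependence, and of 4 opioid genes tested Oprl1, the nociceptin receptor, rose from a median of 21.8 to 25.5 CPM (0.34 ± 0.071, FDR 0.00331), whereas Pnoc (-0.22, FDR 0.111), Penk (0.07) and Pdyn (-0.01) did not pass. In unweighted limma and in edgeR neither Dlg3 nor Oprl1 passed. None of 6 steroid hormone receptor genes, 73 potassium channel genes or 16 endoplasmic reticulum chaperone genes passed. Of all genes tested 8.96% passed in either direction, so the short lists among these would hold few calls in any case.

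Many genes of the cytosolic ribosome and of the respiratory chain fell by small amounts. Of 79 ribosomal protein genes 58 fell and none rose, with a list median of -0.24, against 5.69% of all genes falling. Rpl23 went from a median of 347 to 289 CPM (-0.34, FDR 7.57e-04), Rpl36a from 164 to 136 CPM (-0.36) and Rps26 from 239 to 203 CPM (-0.35). Of 80 nuclear genes of the respiratory chain 26 fell and none rose, with a median of -0.17. Cox6a2, a tissue-restricted subunit of cytochrome oxidase, went from a median of 9.02 to 5.88 CPM (-0.66, FDR 8.62e-04), and Ndufb4 and Uqcrb changed by -0.32 and -0.31. Of 13 mitochondrial mRNAs 5 fell (mt-Co2 -0.56, mt-Atp6 -0.49, mt-Nd2 -0.42, mt-Co3 -0.41 and mt-Nd4 -0.36), with a median of -0.41.

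These counts rested on few libraries. The 58 ribosomal falls were 34 without WT male replicate 3, 34 without WT diestrus replicate 5, 36 without WT diestrus replicate 4 and 38 without the lone WT estrus mouse, and they were 0 in unweighted limma and 0 in edgeR. The 26 respiratory falls were 11 without WT male replicate 3, 12 without WT diestrus replicate 4, 12 without WT diestrus replicate 5, 14 without WT diestrus replicate 3, 14 without the lone WT proestrus mouse, 14 without the lone WT estrus mouse and 42 without WT male replicate 5, and they were 1 in unweighted limma and 1 in edgeR. Leaving out any 1 of 18 mice left 3 or fewer of the 5 mitochondrial falls, and none were left without WT male replicate 3, WT diestrus replicate 4 or 5, or the lone WT proestrus or estrus mouse, nor in unweighted limma or edgeR. Against the WT mice of B6 breeding, KO mice had 0 ribosomal, 1 respiratory and 0 mitochondrial falls.

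**Figure D3:**
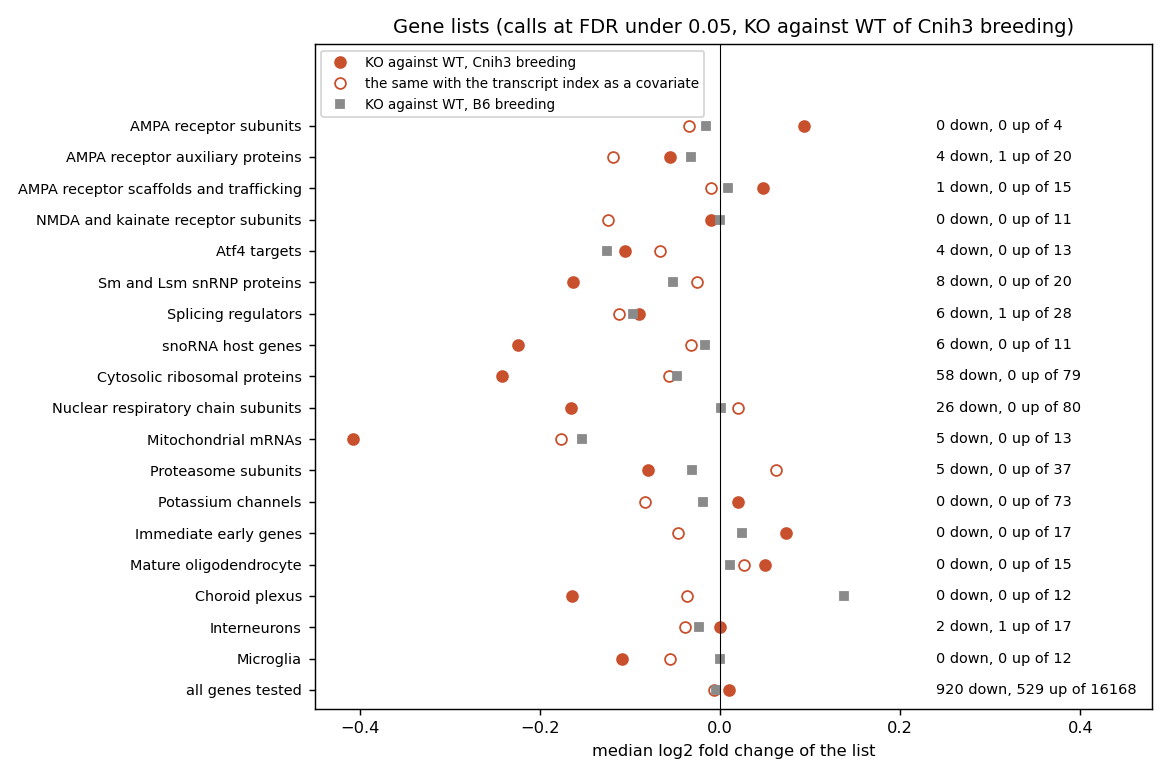
Each row is a gene list, with its median log2 fold change (x axis) in KO against WT of Cnih3 breeding (filled circle), in the same comparison with the transcript index as a covariate (open circle) and in KO against WT of B6 breeding (square), and with its number of DEGs at the right. Mitochondrial mRNAs and ribosomal protein genes lie farthest below 0 (-0.41 and -0.24) and lie nearer to it with the index.

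Fold changes followed transcript length. Among the 670 genes whose longest annotated transcript has at most 500 bases, 241 fell, none rose and the median log2 fold change was -0.29. The median was -0.17 above 500 and up to 1000 bases, -0.05 up to 2000, 0.03 up to 4000, 0.06 up to 8000 and 0.05 beyond. Lower genes had a median length of 942 bases and higher genes one of 4099, against 3129 for all genes tested. Pseudogenes, mostly short copies of genes such as those of the ribosome, made up 37.7% of the lower genes and 8.18% of all genes tested, and their reads can be shared with the parent gene. In WT mice of Cnih3 breeding against those of B6 breeding, the median of the shortest genes was 0.24, while in KO against WT of B6 breeding it was -0.02.

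**Figure D4:**
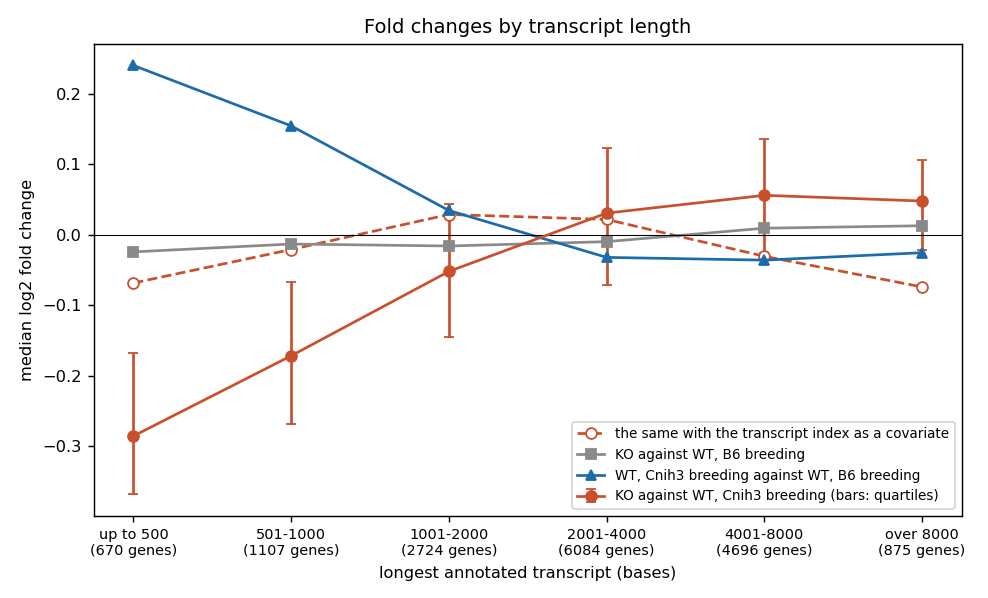
The x axis gives the length of the longest annotated transcript in 6 bins and the y axis the median log2 fold change, for KO against WT of Cnih3 breeding (bars from the lower to the upper quartile), the same with the index as a covariate, KO against WT of B6 breeding, and WT of Cnih3 against WT of B6 breeding. The KO line of Cnih3 breeding climbs from -0.29 to 0.06 as length grows, the line of both WT groups descends from 0.24, and the line against B6 breeding stays near 0.

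A transcript index was therefore computed per library, as the median log2 CPM, centred per gene, of genes under 1000 bases minus that of genes over 4000 bases. It ran from -0.41 to 0.75 in WT mice of Cnih3 breeding (mean 0.19 ± 0.34, SD, n = 11) and from -0.41 to 0.78 in KO mice (mean -0.04 ± 0.28, SD, n = 28). The difference of -0.22 had a permutation p of 0.0494, two-sided, which was 0.0658 after adjustment over 4 comparisons. In diestrus, 4 WT mice had 0.12 to 0.51 and 6 KO mice -0.19 to 0.16, a difference of -0.35 (exact permutation p = 0.0286, adjusted 0.0571). In males the difference was 0.13, in the other direction (exact permutation p = 0.612). Between the WT mice of the 2 breedings it was 0.25 (permutation p = 0.0266, adjusted 0.0571). This test and that of all KO against WT mice pooled the stage groups. They left stage out, though the stages were unevenly spread over the groups. No library batch is given in the sources used here, and the part of this index in the results was not tested beyond its use as a covariate. With that covariate, added after the data were seen, 564 genes passed (299 higher and 265 lower), 231 of them also among the 1449 in the same direction. Of the 20 genes with the smallest FDR in each direction, 10 lower and 10 higher, 20 still passed, whereas 14 passed in edgeR and 14 in unweighted limma. The 6 that did not pass in either were all higher genes, namely Uspl1, Coa5, Usp11, Nrip3, Ift172 and Arhgap33. Ribosomal falls went from 58 to 5, respiratory from 26 to 2, mitochondrial from 5 to 0 and snoRNA hosts from 6 to 2. Falls in the list of Sm, Lsm and related proteins went from 8 to 4, and those of splicing regulators from 6 to 4. The index was computed from these same libraries, and list members under 1000 bases are among the genes that define it. The median longest transcript had 1059 bases in the ribosomal, 1003 in the respiratory and 784 in the mitochondrial list. Lower counts in such lists were therefore partly built in, and they cannot tell whether the falls are separate from the index. Bex1 (-0.39), Zfas1 (-0.52), Aim2 (-1.19), Cort (-1.02), Atf4 (-0.36) and C1ql2 (-0.75) still passed, Cnih3 was at -0.47 (FDR 0.00455), and Npy (FDR 0.0532) and Oprl1 (FDR 0.0611) did not pass.

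**Figure D5:**
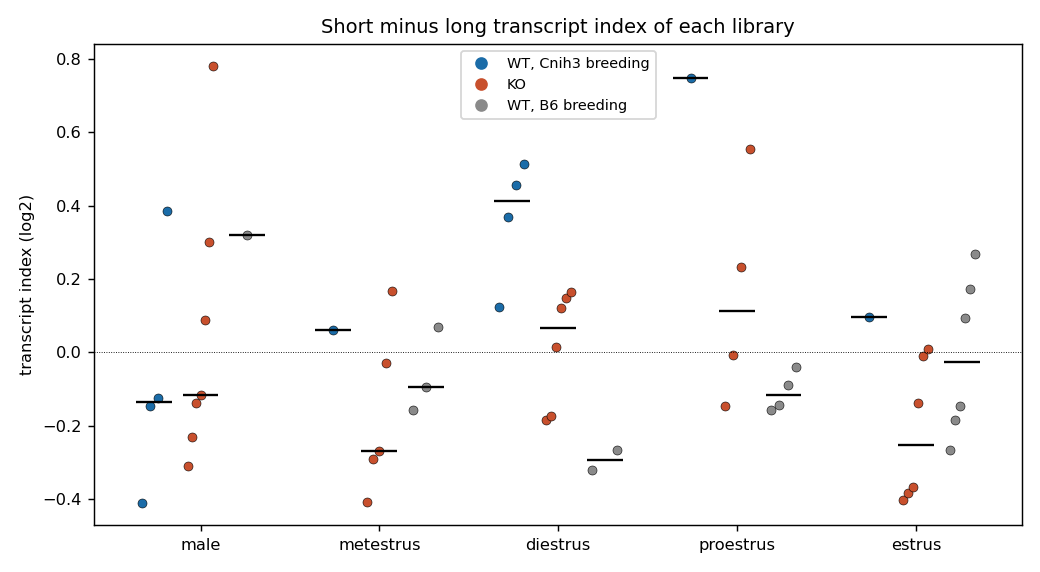
Each point is 1 library, placed by its transcript index (y axis, log2) and stage group (x axis), with a line at the median. The WT diestrus mice of Cnih3 breeding lie higher (0.12 to 0.51) than most KO diestrus mice (-0.19 to 0.16), and the lone WT proestrus mouse is the highest WT mouse at 0.75.

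Few cell type markers passed. Of all genes tested 8.96% passed (5.69% lower and 3.27% higher in KO mice). Lists this short would thus hold few calls in any case, and their counts are given as description. No gene of the lists for mature oligodendrocytes (15), astrocytes (11), microglia (12), endothelium (9), choroid plexus (12), CA1 pyramidal cells (6), thalamus (9) or cortical layers (5) passed, and none of 17 immediate early genes or 15 clock genes did. Of 8 dentate granule cell markers C1ql2 alone fell. Of 17 interneuron markers Cort and Npy fell and Gad1, which encodes a GABA-synthesising enzyme, rose by 0.18 (FDR 0.0416). Neither Npy nor Gad1 passed in unweighted limma, in edgeR or with the index. The summed level of the 17 interneuron markers was 1221 to 1539 CPM in WT mice and 1149 to 1785 CPM in KO mice. Of 10 oligodendrocyte precursor markers Olig1 (-0.23) and Olig2 (-0.30) fell. None of the 10 passed with the index, with RNA integrity as a covariate, with all 27 WT mice, without the highest-index libraries, in unweighted limma or in edgeR. Among CA2 and CA3 markers Pcp4 (-0.31) and Bok (-0.37) fell and Stard5 rose by 0.18, and none of these 3 passed in unweighted limma or edgeR. Sgk1 was the 1 of 15 glucocorticoid-responsive genes to pass, at medians of 156 and 220 CPM (0.44, FDR 0.0198). This call was lost without the lone WT metestrus or estrus mouse, in unweighted limma (FDR 0.296), in edgeR (FDR 0.250) and with the index (FDR 0.0999). It held with age or RNA integrity as a covariate. Against WT of B6 breeding Sgk1 was at 0.37 (FDR 0.0784).

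Because the KO line was founded from BL/6N animals, the genes around Cnih3 were also counted. Within 2 Mb of Cnih3, of 38 protein-coding genes tested 1 rose and none fell, against 8.96% of all genes called in either direction, with a median of 0.02. The gene that rose was Coq8a, a kinase-like protein of coenzyme Q synthesis. It was at 48.6 to 114 CPM in WT mice (median 70.5) and 60.7 to 126 CPM in KO mice (median 87.0). The change was 0.29 ± 0.069 (FDR 0.00711). Coq8a still passed with the transcript index (FDR 0.00568), but not in unweighted limma (FDR 0.122) or edgeR (FDR 0.135). Against WT of B6 breeding it was at 0.18 (FDR 0.191). Within 10 Mb, 2 of 120 genes rose and 5 fell, with a median of 0.0048. Aim2 (-1.18), at 7.89 Mb, was among the falls.

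Few genes passed between the 2 kinds of WT mice, which does not show that these groups were alike. Without adjustment, 1495 genes had a limma p under 0.05, and the median of the shortest genes was 0.24. WT mice of Cnih3 breeding differed from those of B6 breeding in 3 genes (0.0186%), Ndn (0.66 ± 0.093, FDR 4.56e-05), Wdfy1 (1.74 ± 0.28, FDR 5.42e-04) and Nrg1 (-0.60 ± 0.12, FDR 0.0281). Wdfy1, a gene known to differ between C57BL/6 substrains, was at 47.6 to 92.8 CPM in the 11 WT mice (median 81.7), at 16.3 to 106 CPM in KO mice (median 80.4) and at 16.3 to 56.5 CPM in WT mice of B6 breeding (median 19.3). Ndn, an imprinted gene of the Prader-Willi region, had medians of 366, 337 and 217 CPM in the same order. Neither differed between KO and WT mice of Cnih3 breeding past the threshold (Ndn -0.10 ± 0.080, Wdfy1 -0.07 ± 0.24), whereas against WT mice of B6 breeding KO mice were higher by 0.55 and 1.64. Nrg1 did pass against WT mice of Cnih3 breeding (0.34 ± 0.10, FDR 0.0309), but not in unweighted limma (FDR 0.234) or edgeR (FDR 0.255). Against WT mice of B6 breeding Nrg1 was at -0.29 (FDR 0.0925).

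KO mice against WT mice of B6 breeding gave 153 DEGs (0.946%) in a fit of all 55 libraries, a comparison that shares the 28 KO libraries. In that fit KO mice against WT mice of Cnih3 breeding gave 802 DEGs (252 higher and 550 lower), where the fit of 39 libraries gave 1449. Log2 fold changes are given side by side, those against WT of Cnih3 breeding from the fit of 39. Aim2 was at -1.18 against WT of Cnih3 breeding and -1.41 against WT of B6 breeding. Cort was at -1.02 and -1.06, Bex1 at -0.54 and -0.51, Snrpc at -0.46 and -0.46, Atf4 at -0.42 and -0.49, Slc7a3 at -1.01 and -1.34, and Tceal8 at -0.36 and -0.29, each an FDR under 0.05 in both. Zfas1 was at -0.71 and -0.48. Ano2 was at 1.33 and 0.49 (FDR 0.341), Npy at -0.47 and -0.32 (FDR 0.141), Gas5 at -0.39 and -0.13 (FDR 0.599), and Cnih2 at -0.27 and -0.08 (FDR 0.872), the second value of each not passing.

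Males and diestrus females were the 2 stage groups with more than 1 WT mouse. In males, 47 genes (0.291%) passed, and in diestrus 12 (0.0742%). Aim2 led in males. The 4 WT males had 2.80, 3.24, 3.53 and 4.41 CPM, and the 7 KO males had 0.734 to 2.06 CPM (median 1.22), a change of -1.45 ± 0.24 (FDR 0.00931). Nudt3 changed by -0.54 (FDR 0.0122) and Ubxn11 by 0.70 (FDR 0.0252). The 4 WT males had 9.69, 10.6, 11.7 and 11.7 CPM of Ubxn11 and all 7 KO males exceeded them, at 12.9 to 22.7 CPM. In diestrus Myo1c, an unconventional myosin, led. The 4 WT mice had 5.54, 6.36, 7.44 and 9.02 CPM and the 6 KO mice 8.77 to 11.5 CPM (median 10.5), a change of 0.68 ± 0.12 (FDR 0.0337). Ablim3 (0.44) and Usp37 (0.68) had the same FDR. Unweighted limma called 1 gene in males and 0 in diestrus, where 3618 genes had an unadjusted p under 0.05 in weighted limma. The male count was 2026 without WT replicate 2, 288 without WT replicate 3, 0 without WT replicate 4, 1 without WT replicate 5, 83, 124, 4 and 0 without KO replicates 3, 4, 5 and 7. The diestrus count was 0, 3 and 591 without WT replicates 4, 5 and 6, and 20, 0, 122, 24, 0 and 5 without KO replicates 1 to 6.

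The genotype change differed between diestrus and males in 51 genes (0.315%). Males were 18.3 to 23.7 weeks old in both genotypes, WT diestrus mice 11.7 to 17.1 and KO diestrus mice 10.9 to 23.4. Age is thus partly confounded with sex in this contrast, and their parts cannot be told apart. Cdc20, a regulator of the anaphase-promoting complex, was at 0.255, 0.364, 0.924 and 1.34 CPM in WT males and 0.939 to 2.09 CPM in KO males (median 1.42). In diestrus it was at 0.527, 0.862, 1.05 and 1.71 CPM in WT mice and 0.125 to 0.884 CPM in KO mice (median 0.518). The KO change was thus 1.87 in males and -1.34 in diestrus, a difference of -3.21 ± 0.58 (FDR 0.0268), with overlapping groups in both. Med13l, a Mediator kinase module subunit, was at 103, 103, 119 and 122 CPM in WT males and below them in KO males (86.4 to 100 CPM). In diestrus it was at 88.9, 92.3, 96.6 and 97.4 CPM in WT mice and above them in KO mice (104 to 114 CPM). The 875 genes over 8000 bases shifted the same way as a set, with median log2 fold changes of -0.14 in males and 0.18 in diestrus. The longest transcript of Med13l has 9296 bases, and whether its change is separate from that shift was not tested. The difference for Med13l was 0.52 ± 0.098 (FDR 0.0268). No gene passed this test in edgeR, DESeq2 or unweighted limma, or with age as a covariate, while 3675 had an unadjusted p under 0.05 in weighted limma. Leaving out WT males gave 1704, 1259, 0 and 0 genes (replicates 2, 3, 4 and 5), and leaving out WT diestrus mice 5, 0, 4 and 683 (replicates 3, 4, 5 and 6). Leaving out KO males gave 1, 311, 6, 197, 227, 2 and 7 (replicates 1 to 7), and leaving out KO diestrus replicates 3 to 6 gave 226, 7, 3 and 8.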

How the data were processed

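RNA-seq had been carried out on dorsal hippocampus with a low-input SMARTer kit that does not mark strand, on lysate supernatant, 1 library per mouse. Per the submitters' processing notes and the study's methods, the authors aligned reads with STAR 2.7.9a to GRCm38 and deposited raw gene-level counts from featureCounts 2.0.3. The table held 55774 lines, of which 287 were repeats, and 1 column that matched no mouse was not used. The CPM and transcript-level tables that came with it were not used here. The parents of each mouse were taken from the study's own sample list, since the labels do not give them.

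Genes over 1 CPM in at least 10 of the 55 libraries were kept, and 5 rRNA genes were left out. Counts were TMM-normalised (edgeR 4.0.16) and fitted with limma 3.58.1, using voom with sample quality weights, on the 39 libraries with stage group as covariate. Males, diestrus and their difference were contrasts of a model with a term per genotype and stage, and comparisons with WT of B6 breeding used all 55 libraries. Adjusted p-values (FDR) are Benjamini-Hochberg over 16168 genes, with a threshold of 0.05. Values per mouse are CPM. Alternatives were edgeR's quasi-likelihood test, DESeq2 1.42.0, unweighted voom, other filters, scaling and covariates, subsets of mice and leaving out each mouse. The transcript index covariate, the omission of its highest libraries and a block on the mouse number were chosen after seeing the data. The index was tested by permutation, exact within males and within diestrus, and with stage left out in the comparisons over all stage groups. R 4.3.3, scipy 1.17.1 and numpy 2.4.6 were used. On simulated data for the main comparison (16168 genes), limma recovered 72% of genes changed by 0.5 and 100% of those changed by 1 on the log2 scale, with 1.71% false calls. False calls were 5.65% for diestrus and 5.59% for the difference. The simulated counts were drawn gene by gene, with no shift shared across genes and no unequal library quality. There weighted limma, unweighted limma and edgeR called 175, 174 and 178 genes, where the real data gave 1449, 50 and 45. These rates therefore do not carry over to the real calls.

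Named genes were Cnih3, the 10 with the smallest FDR and the 5 called with the largest change in each direction, the genes within 2 Mb of Cnih3 (as counts, with the called one), members of the AMPA lists, called members of each other list described with up to 4 more by smallest p, and the 3 with the smallest FDR of each other contrast. Those chosen otherwise are marked in the text. The comparison and the lists were chosen with earlier results of these data known. Genes with overlapping or near-identical copies are uncertain. The number of WT mice limits the precision.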

Additional observations from a re-analysis of the deposited data

Results flagged for a closer look

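In 168 sets of values, each of 1 measure in 1 stage group of 4 to 7 mice, 10 held a mouse that stood apart from the others, and chance alone flags about 1 group in 20. KO male replicate 6 gave 6 of the 10. It was the highest of the 7 KO males for Bex1 (111 CPM, next 79.9), Snrpd3 (222 CPM, next 173), Tceal8 (155 CPM, next 121), Bex2 (849 CPM, next 615) and Snrpc (71.6 CPM), and the lowest for Coa5 (60.8 CPM, next 105). It also had the highest transcript index of all KO mice (0.78) and the lowest quality weight (0.251). KO metestrus replicate 3 was the highest of its group for Cnih3 (44.6 CPM, next 32.7). Among WT mice, diestrus replicate 6 was the lowest of its group for Aim2 (2.66 CPM, next 2.78), diestrus replicate 4 was the lowest for Cyb5rl (5.95 CPM, next 8.01) and male replicate 2 was the highest for Usp11 (149 CPM, next 111).

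The genotype change differed between diestrus and males in 51 genes by a limma test of the difference itself. The largest differences, as log2 fold change in diestrus minus that in males, included Cdc20 (-3.21) and Gm12326 (-2.77), and Med13l had 0.524.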

How the results depend on the processing

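For the 28 KO against 11 WT mice, 1449 genes passed. The count was 45 in edgeR's quasi-likelihood test, 50 without quality weights, 111 in DESeq2 (639 genes had no adjusted p), 306 without a filter, 564 with the transcript index as a covariate, 2353 with equal weight for the stages, 11 in males and diestrus mice alone, 79 in mice of 14 weeks or more and 730 with all 27 WT mice. It ran from 541 to 1868 on leaving out each mouse. It was 541 without the lone WT estrus mouse, 688 without WT male replicate 3 and 866 without the lone WT proestrus mouse. Age, RNA integrity, choroid level, DESeq2 scaling, the filter in 39 libraries, females alone, the random block and omission of the highest-index libraries gave 1101 to 1793. In males, 47 genes became 4 in DESeq2, 29 without a filter, 1 in edgeR, 1 without weights, 0 with age and 189 with the index, and ran from 0 to 2026 on leaving out each mouse. In diestrus, 12 genes became 0 in DESeq2, edgeR, unweighted voom and with age or the index, and ran from 0 to 591. The 51 genes of the difference became 0 in DESeq2, edgeR, unweighted voom, without a filter and with age or the index, and ran from 0 to 1704. The causes were not tested. Of 35 named genes called, 0 reversed, and 64 of 1365 omissions of a mouse and 134 of 594 other alternatives lost the call. No paired analysis was possible because the replicate numbers were given in accession order and pair no mice. A random block on the first part of the mouse number, whose meaning is not given in the sources used here, gave 1618 genes.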
